A study of Homo sapiens with 6 samples.

Results

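Mitochondrial redox defence is described here through 10 genes whose products remove peroxide and superoxide in mitochondria or supply that removal with electrons: PRDX3, PRDX5, TXN2, TXNRD1, TXNRD2, NNT, SOD2, GPX4, GLRX2 and IDH2. Members were found by gene symbol, as probe sets that the platform annotation gives to 1 of these symbols alone. This gave 8 of the 10 genes, with 13 probe sets, among 11963 genes with such a probe set. SOD2 is named only on 4 probe sets that also carry SOD2-OT1, and PRDX5 has no probe set listed, so neither is analysed here. The rule uses gene symbols and no measured value, but the list of genes was chosen with earlier results of these data known.

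The cells were NCI-H295A, an established human adrenocortical carcinoma line that makes steroids, measured on 3 arrays of untreated cells and 3 arrays of cells exposed for 18 h to 1 mM 8-Br-cAMP. This analogue of cAMP enters cells and mimics the second messenger of ACTH, the pituitary hormone that drives the adrenal cortex. Both groups were grown in the same medium, which held selenium, insulin, gentamicin and fetal calf serum. All 6 arrays come from 1 cell line, no vehicle is named for the controls, and the labels do not tie the plates to separate cultures, so each p-value reflects the spread among these arrays alone, and that spread may be technical. The array reports RNA from all cells of a plate, so fewer cells with a transcript and less of it per cell cannot be told apart.

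In the mitochondria of steroid-making cells, electrons pass from NADPH through ferredoxin to cytochrome P450 enzymes, and part of them leaks to oxygen. Superoxide is turned into hydrogen peroxide, which peroxiredoxins reduce; the peroxiredoxin is recharged by thioredoxin, thioredoxin by thioredoxin reductase, and the reductase by NADPH. NNT, a transhydrogenase of the inner membrane, and IDH2, the mitochondrial NADP-linked isocitrate dehydrogenase, make NADPH there. Inherited loss of NNT or of TXNRD2 is known as a cause of familial glucocorticoid deficiency, in which the adrenal cortex fails to answer ACTH.

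After 8-Br-cAMP, the signals of PRDX3 and NNT were about 2-fold lower, those of TXNRD2 and IDH2 were lower by smaller mean differences, and those of TXN2, GPX4 and TXNRD1 differed little. The differences were 2.22-fold for PRDX3 and 2.17-fold for NNT (control over 8-Br-cAMP, geometric means, n = 3), each for the gene's probe set with the highest mean. On the log2 scale these were -1.15 and -1.12, but -0.93 and -0.55 with both arrays of sample number 1 left out. The other probe set was 1.33-fold lower for PRDX3 and 1.97-fold lower for NNT. Without pairing the arrays, limma called 0 of the 8 genes at an adjusted p under 0.05, 2 had an unadjusted p under 0.05 (PRDX3 and NNT), and the unmoderated test also called 0. The background in that fit was 0% of 7927 genes called, and 11.9% at an unadjusted p under 0.05. With the sample number as a block, called the paired fit below, 1 of the 8 genes fell, PRDX3, and 0 rose, against a background of 1.96% of genes lower and 1.73% higher. At an unadjusted p under 0.05 in the paired fit there were 4 of 8 genes, all lower (PRDX3, TXNRD2, NNT and IDH2). The background was 22.4%, with lower and higher genes counted together. The series' design text selected transcripts by a fold of 2 or more together with p under 0.05 before adjustment. Without the block, 2 of the 8 genes met this, PRDX3 and NNT, next to a background of 7.01%.

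The number 1 arrays stood apart in both groups, and several results below rest on them. The 3'/5' signal ratio of the actin control probe sets, which rises as RNA breaks down, was 5.72 on control 1 and 38.8 on 8-Br-cAMP 1, and 1.93 to 2.41 on the other 4 arrays. Whether RNA breakdown is all that set the number 1 arrays apart was not tested. Results are therefore also given with both number 1 arrays left out. In that fit 33.3% of all genes passed, 20.5% lower and 12.8% higher, from arrays 2 and 3 alone, whose spread may be technical. It was run only on the intensities as deposited. Median signals were 94.6 and 81.7 on controls 2 and 3, and 71.5 and 67.3 on 8-Br-cAMP 2 and 3. Whether the calls of this fit hold under another scaling was not tested. Of the 8 measured adrenocortical markers, 8 had a mean over the 6 arrays above the filter level of 45.5, although MC2R, the ACTH receptor, was as low as 21.1 on single arrays. Of 5 markers of the adrenal medulla 1 was above it (CHGB), and DBH, the dopamine hydroxylase, had signals of at most 9.4. Of the endothelial, leukocyte and fibroblast markers 2 of 3, 1 of 3 and 1 of 3 were above it. The summed signal of the 3 endothelial markers was 90.6 to 150.8 on controls and 265 to 401.3 after 8-Br-cAMP, and the higher sum lay in VWF, the von Willebrand factor gene (mean signals 51.6 and 268.7). PECAM1 had means of 54.0 and 56.7, and CDH5, the endothelial cadherin, was at 11.5 or less on every array; the part of these genes in the results below was not tested.

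For PRDX3, NNT and GLRX2, 250 bases of genomic sequence before a transcription start listed by RefSeq on GRCh38.p14 are shown, because PRDX3 and NNT had the largest mean differences and each of these 3 stretches holds an E-box. The capitals mark the E-box, CACGTG, which reads the same on both strands and is bound by basic helix-loop-helix factors. The PRDX3 stretch is chr10:119178813-119179062 on the minus strand, the NNT stretch chr5:43602930-43603179 on the plus strand, and the GLRX2 stretch chr1:193105415-193105664 on the minus strand.
PRDX3: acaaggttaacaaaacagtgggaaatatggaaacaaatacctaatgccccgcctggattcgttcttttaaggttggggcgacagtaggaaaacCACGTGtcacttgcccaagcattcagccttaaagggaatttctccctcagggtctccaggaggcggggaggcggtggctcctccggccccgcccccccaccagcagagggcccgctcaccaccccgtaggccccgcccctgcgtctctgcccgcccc
NNT: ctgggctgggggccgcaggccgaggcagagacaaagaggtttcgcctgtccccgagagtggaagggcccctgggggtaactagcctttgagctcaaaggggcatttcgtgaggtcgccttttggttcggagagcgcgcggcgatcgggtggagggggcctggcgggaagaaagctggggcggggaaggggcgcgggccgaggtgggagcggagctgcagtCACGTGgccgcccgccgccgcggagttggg
GLRX2: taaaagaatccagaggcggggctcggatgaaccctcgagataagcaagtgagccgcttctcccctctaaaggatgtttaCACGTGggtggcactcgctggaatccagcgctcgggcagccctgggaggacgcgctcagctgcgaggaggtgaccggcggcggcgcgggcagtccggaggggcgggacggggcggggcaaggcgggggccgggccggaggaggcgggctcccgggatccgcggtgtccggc
The E-box begins 157 bases before the start in PRDX3, 30 bases before it in NNT and 171 bases before it in GLRX2. RefSeq starts were found for all listed genes except TXN2, 21 starts in all, and 3 of the 21 held an E-box, against 6.34% of 35116 stretches of the same length. NNT has 1 more listed start and GLRX2 2 more, and these held no E-box. The full cAMP response element TGACGTCA was in 0 of the 21 stretches (1.65% of all). Its half-site TGACG, searched on both strands, was in 7 of 21 stretches, of TXNRD2, SOD2, GPX4 and GLRX2 (21.2% of all), some of which overlap. The antioxidant response element core TGACNNNGC was in 2 of 21, both TXNRD1 (10.9% of all). The SF-1 site AAGGTCA was in 2 of 21, both GLRX2 (3.44% of all), and the NRF1 site in 2 of 21, both PRDX5 (5.07% of all), again on either strand. The 2 GLRX2 stretches overlap each other, as do the 2 PRDX5 stretches. These matches describe the letters of the stretches and do not show that a factor binds there, and the motifs named were read after the differences had been seen.

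PRDX3, the peroxiredoxin of the mitochondrial matrix, was lower on the treated array of every pair. Its main probe set, the one with the highest mean, gave signals of 909.1, 1605.7 and 1436.3 on controls 1 to 3 and 301.5, 776.1 and 818.6 on the 8-Br-cAMP arrays. All 3 treated signals lay below all 3 controls, and within each group the number 1 array was the lowest. On the log2 scale the group means were 10.32 ± 0.43 (SD, n = 3) and 9.17 ± 0.81, a difference of -1.15. The paired fit gave a 95% interval of -1.68 to -0.62 and limma's adjusted p of 0.0487. Without the block the interval was -2.21 to -0.090 and the adjusted p 0.414. The paired call lay close to the threshold and did not hold in 5 of 10 alternatives that kept the block, over which the adjusted p ran from 6.63e-05 to 0.160. It also rests on a pairing that the labels do not give. The call was lost without pair 2 (adjusted p = 0.107) and without pair 3 (0.0845), and with arrays set to a common median (0.160). In arrays 2 and 3 alone PRDX3 differed by -0.93, at an adjusted p of 0.000676. Without 8-Br-cAMP 1 alone, and without a block, the difference was -0.68, so its size too depended on that array.

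The other PRDX3 probe set had lower signals and parted the pairs. It read 66.1, 186.9 and 163.5 on the controls and 85.9, 99.4 and 99.7 after 8-Br-cAMP. Control 1 was the lowest of all 6 arrays, so the groups overlapped. Pair 1 differed by 0.38, pair 2 by -0.91 and pair 3 by -0.71, with a paired adjusted p of 0.522. It passed as lower in arrays 2 and 3 alone (-0.81, adjusted p = 0.0183).

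**Figure D1:**
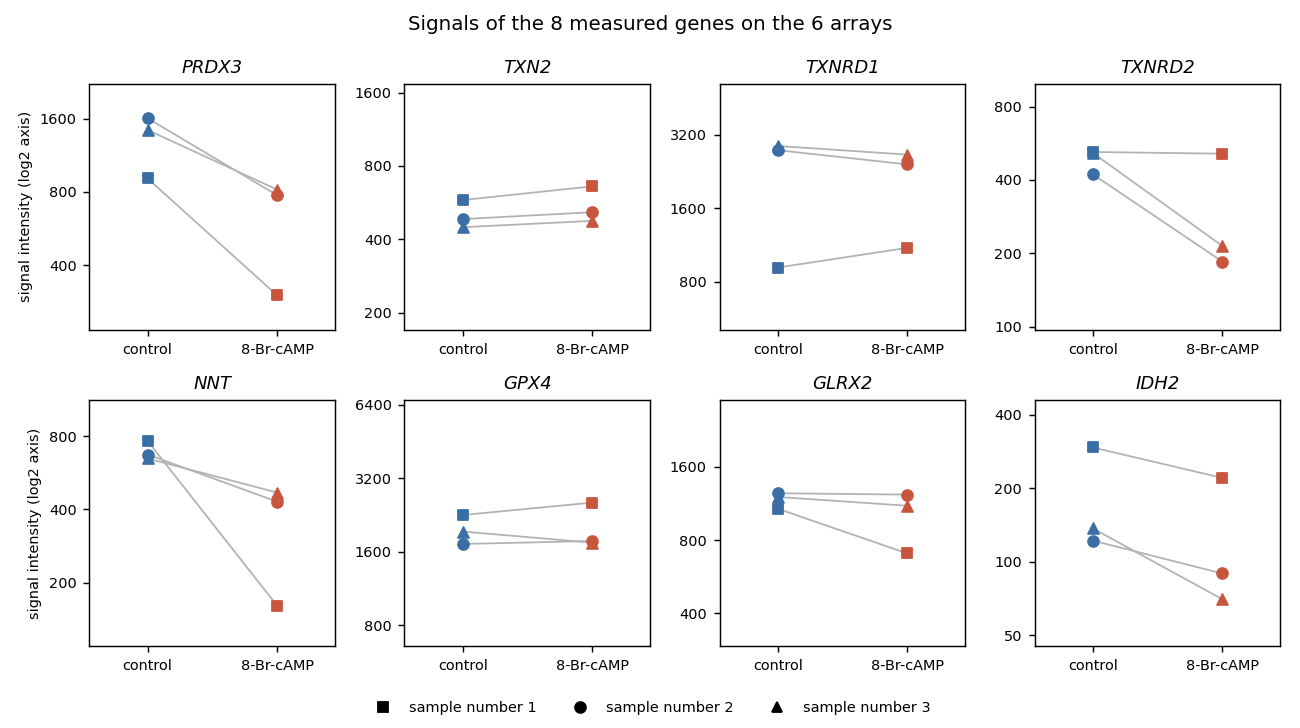
Signal intensity (log2 axis, in arbitrary units of the scanner software) of the probe set with the highest mean of each of the 8 measured genes, on control (blue) and 8-Br-cAMP (red) arrays. Marker shapes give the sample number and grey lines join same-numbered arrays. PRDX3 and NNT are the 2 of 8 genes whose groups do not overlap (background 19.9% of all genes tested). TXNRD2 is level in pair 1 (521.2 and 512.8) but lower after 8-Br-cAMP in pairs 2 and 3.

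NNT, which moves hydride from NADH to NADP to make mitochondrial NADPH, was lower after 8-Br-cAMP in all 3 pairs on both of its probe sets. The main probe set read 763.6, 672 and 647.3 on the controls and 161.2, 430.5 and 469.2 on the treated arrays. The groups did not overlap, and 8-Br-cAMP 1 was far below the other treated arrays. Pair 1 differed by -2.24, pair 2 by -0.64 and pair 3 by -0.46. Over the 3 pairs it was -1.12 (log2 means 9.44 ± 0.12 and 8.32 ± 0.86, SD, n = 3), with a paired interval of -1.99 to -0.24 and an adjusted p of 0.153, which did not pass. The difference was smaller in arrays 2 and 3 alone, at -0.55, and passed (adjusted p = 0.0105). The other NNT probe set gave 322, 503.2 and 489.7 on the controls and 104.1, 339.2 and 292.1 after treatment, a difference of -0.98 (paired adjusted p = 0.106), and -0.66 without the number 1 arrays (adjusted p = 0.00870). The size of the NNT difference thus rested on 8-Br-cAMP 1, the array with the actin ratio of 38.8, and the part of RNA integrity in it was not tested.

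IDH2, the other mitochondrial NADPH source on the list, had low signals. They were 294.4, 122.1 and 137 on the controls and 220.8, 89.5 and 70.2 after 8-Br-cAMP. Each treated array was below its same-numbered control, but 8-Br-cAMP 1 was above controls 2 and 3, so the groups overlapped. The difference was -0.61 (paired interval -1.21 to -0.0056, adjusted p = 0.232), and it did not pass without the number 1 arrays either (-0.71, adjusted p = 0.0652). Its size changed with single arrays, from -0.21 without control 1 and -0.28 without 8-Br-cAMP 3 to -1.10 without 8-Br-cAMP 1. Its other probe set fell below the filter, with signals from 8.7 to 70.2, and was not tested.

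TXNRD2, the mitochondrial thioredoxin reductase and a selenoprotein, differed between pairs. Its main probe set read 521.2, 422.1 and 516.3 on the controls and 512.8, 185.1 and 214.6 after 8-Br-cAMP. The treated arrays 2 and 3 were below all controls, while 8-Br-cAMP 1 was as high as the controls. The differences were -0.023, -1.19 and -1.27 in pairs 1 to 3, with a mean of -0.83 (paired interval -1.53 to -0.12, adjusted p = 0.180). Without the number 1 arrays the difference was -1.23 and passed (adjusted p = 0.00114), and with 1 array left out it ran from -1.28 (without 8-Br-cAMP 1) to -0.55 (without 8-Br-cAMP 2). The other TXNRD2 probe set had low signals, 36.8, 128 and 77 on the controls and 75.2, 38.1 and 35 after treatment. It moved up by 1.03 in pair 1 and down in the others (-1.75 and -1.14), and did not pass the paired fit (adjusted p = 0.591).

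TXNRD1, the thioredoxin reductase found mainly in the cytosol, showed no such difference. It read 913.9, 2768.8 and 2880.4 on the controls and 1100.2, 2420.7 and 2655.6 after treatment. Both number 1 arrays were well below the rest, and the treated arrays lay within the range of the controls. The difference was -0.014 (paired interval -0.46 to 0.43, adjusted p = 0.978), and its sign turned with a common median (0.21). The ratio of TXNRD2 to TXNRD1 within an array is not moved by a common factor on that array, though quantile normalization can move it. It was lower after 8-Br-cAMP in all 3 pairs (-0.29, -0.995 and -1.15 on the log2 scale). The mean change of -0.81 was within the spread of the ratio between arrays (SD 1.04 in controls and 1.48 after treatment), with an exact two-sided permutation p of 0.5, where 3 against 3 arrays cannot go below 0.1. It was larger than the spread of the changes within pairs (SD 0.46, n = 3), with an exact two-sided permutation p within pairs of 0.25, the smallest that 3 pairs can give.

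TXN2, the mitochondrial thioredoxin that recharges PRDX3, was nearly level. Its main probe set gave 580, 484.6 and 448.8 on the controls and 660, 516.9 and 476.3 after treatment. The treated array was slightly higher in every pair, by 0.19, 0.093 and 0.086 on the log2 scale, and the groups overlapped. The mean difference of 0.12 had a paired interval of -0.33 to 0.58 (adjusted p = 0.759), which spans a modest fall as well as a rise. The other TXN2 probe set differed by 0.32 (paired adjusted p = 0.549) and was highest on 8-Br-cAMP 1, at 747.1 against 175.1 to 394.2 on the other arrays. The ratio of PRDX3 to TXN2 within an array was lower in all 3 pairs, by -1.78, -1.14 and -0.90 on the log2 scale. The mean was -1.27 with an SD of 0.46 between pairs (exact two-sided permutation p = 0.2 between groups, where 0.1 is the smallest possible, and 0.25 within pairs, the smallest possible). The ratio of NNT to IDH2 changed by -0.51, with pairs that differed in sign (exact two-sided permutation p = 0.9 between groups and 0.75 within pairs). All 3 ratios were formed after the values had been seen, and neither exact test can reach 0.05 with this number of arrays.

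GPX4, the glutathione peroxidase that reduces lipid peroxides, and GLRX2, a glutaredoxin of mitochondria, complete the list. GPX4 had signals of 2263.8, 1721.4 and 1936.7 on the controls and 2544.5, 1771.4 and 1743.4 after treatment. These overlapped, with the highest signal of each group on its number 1 array, and the difference was 0.019 (paired interval -0.41 to 0.44, adjusted p = 0.966), a sign that turned with quantile normalization (-0.15). GLRX2 gave 1074.9, 1244.3 and 1201.4 on the controls and 705, 1228.5 and 1105.8 on the treated arrays. Only 8-Br-cAMP 1 stood clearly below the controls, and the difference was -0.25 (paired interval -0.74 to 0.24, adjusted p = 0.530), or -0.069 without the number 1 arrays. GPX4 and both thioredoxin reductases are selenoproteins, and of these 3 genes TXNRD2 had the lowest difference.

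**Figure D2:**
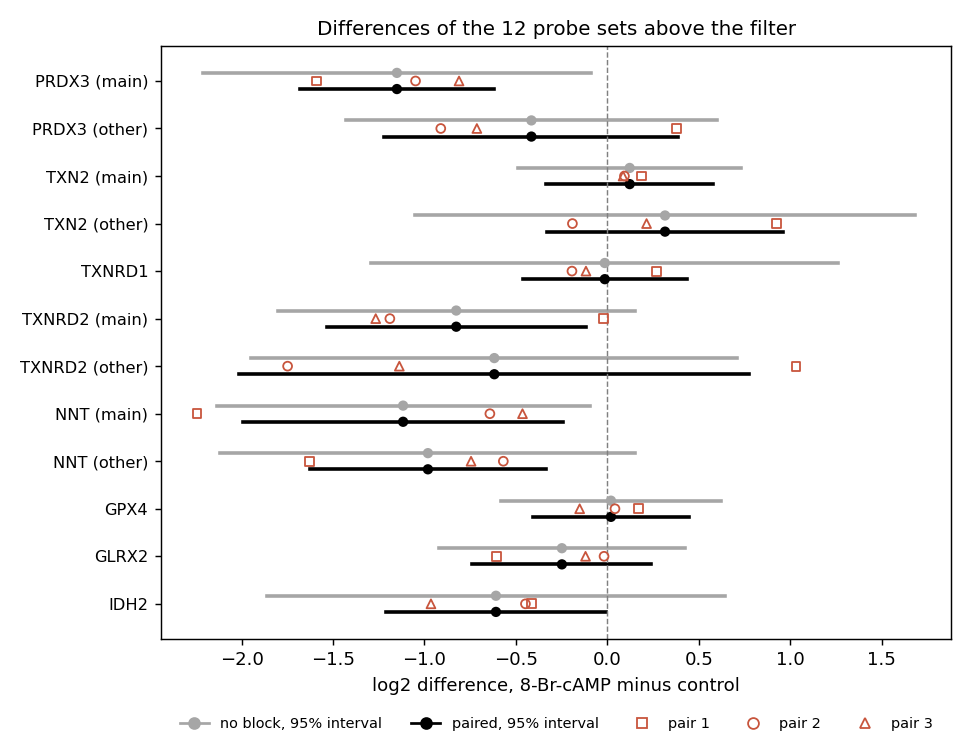
Log2 differences (8-Br-cAMP minus control) of the 12 probe sets above the filter, with 95% intervals without a block (grey) and in the paired fit (black), and the 3 same-numbered pairs as open symbols; main is the probe set with the highest mean of a gene. Both PRDX3, both TXNRD2 and both NNT probe sets lie below 0 in pairs 2 and 3, while pair 1 lies apart, lowest for NNT and above 0 for 1 probe set each of PRDX3 and TXNRD2.

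Across the list, 5 of 8 genes were lower in all 3 pairs (PRDX3, TXNRD2, NNT, GLRX2 and IDH2) and 1 was higher in all 3 (TXN2). The background over 7927 genes was 29.5% lower and 15.2% higher. TXNRD2 counts here with a nearly level pair 1 (-0.023) and GLRX2 with a nearly level pair 2 (-0.018). The groups did not overlap for 2 of 8 genes (background 19.9%). The median difference of the 8 genes was -0.43, and that of all genes tested was -0.14. In arrays 2 and 3 alone, on the intensities as deposited, 3 of the 8 genes fell (PRDX3, TXNRD2 and NNT) and 0 rose. The shares of all genes were 20.5% and 12.8%. At the level of probe sets 6 of 12 then passed, all lower, and these were both probe sets of each of those 3 genes (background 18.7% lower). The 4 genes with 2 probe sets above the filter had both mean differences in the same direction. In single pairs the 2 probe sets differed in sign for PRDX3 and TXNRD2 (pair 1) and for TXN2 (pair 2). No share over all genes is set beside this count.

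The number 1 arrays did not shift all members one way. TXNRD1 was lower on the number 1 array of both groups, by 1.63 in controls and 1.20 after 8-Br-cAMP on the log2 scale, and the main probe set of PRDX3 by 0.74 and 1.40. IDH2 was higher on them, by 1.19 and 1.48. For the main probe sets of TXNRD2 and NNT the shift appeared mainly in the treated group, upward for TXNRD2 (1.36, against 0.16 in controls) and downward for NNT (-1.48, against 0.21). Their other probe sets shifted in controls as well, by -1.43 for TXNRD2 (1.04 after treatment) and by -0.62 for NNT (-1.60 after treatment). Over all probe sets above the filter the median shift was -0.065 in controls and 0.099 after treatment.

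**Figure D3:**
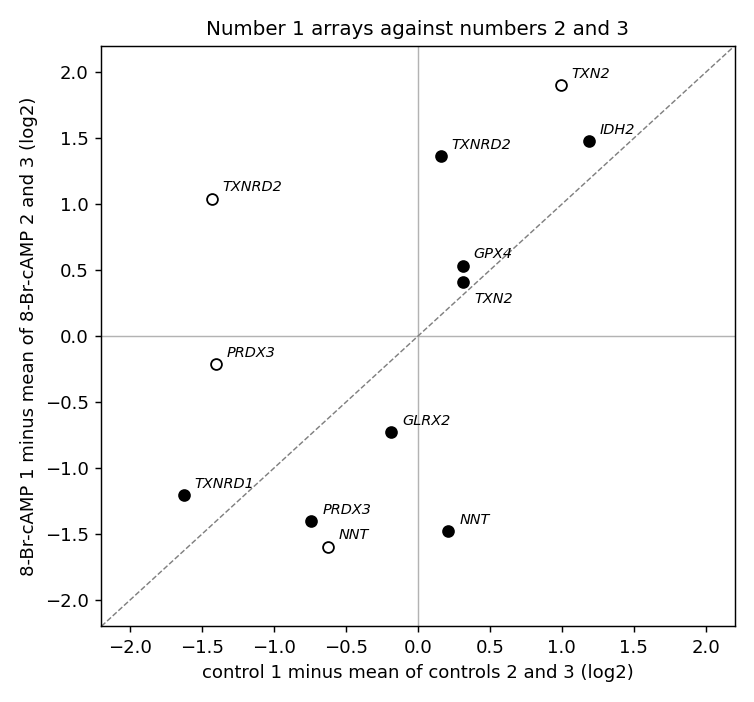
Shift of the number 1 array from the mean of arrays 2 and 3 of the same group, on the log2 scale, in controls (x axis) and after 8-Br-cAMP (y axis), for the 12 probe sets above the filter. Filled points are the main probe set of a gene, open points its other probe set, and the dashed line marks equal shifts; NNT and TXNRD2 lie far from the line on opposite sides.

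NNT had the smallest unadjusted p of the list without the block, so the genes with the most similar profile were taken for it, by the Euclidean distance between mean-centred log2 signals over the 6 arrays among 7926 other genes. The closest were ZNF528, a zinc finger gene (distance 0.28), DCPH1, also known as ARMT1 (0.30), and LDAH, a lipid droplet hydrolase (0.33). All 3 had their lowest signal on 8-Br-cAMP 1, as NNT did, and their paired differences lay between -2.12 and -1.93 in pair 1 and between -0.67 and -0.12 in pairs 2 and 3. Among the members PRDX3 was the nearest to NNT, at a distance of 0.78, with 0.946% of all genes closer, and GLRX2 the next (1.29, with 9.64% closer). These distances describe 6 arrays that fall into a number 1 part and the rest.

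Outside the 8 genes, the wider thioredoxin and glutaredoxin system held genes that moved in both directions. Of 13 measured, 2 rose in the paired fit (GLRX and NXN), 1 fell (TXNIP) and 10 did not pass, against a background of 1.73% higher and 1.96% lower. TXNIP, which binds and inhibits thioredoxin, gave 746.7, 1319.8 and 1348.2 on the controls and 282, 409.3 and 416.6 after 8-Br-cAMP. All treated arrays lay below all controls, a fall of 1.60 on the log2 scale (paired SE 0.19, adjusted p = 0.0151) that was alike in the 3 pairs (-1.40, -1.69 and -1.69). GLRX, the cytosolic glutaredoxin, read 828.6, 329.5 and 312.9 on the controls and 1871.3, 1262.6 and 1404.6 after treatment. Its groups did not overlap, and it rose 3.39-fold (log2 difference 1.76, paired SE 0.25, adjusted p = 0.0234). NXN, a nucleoredoxin of the thioredoxin family, rose by 1.26 (adjusted p = 0.0284) and is named here outside the rule, after its value was seen. Without the block none of these 3 passed (adjusted p between 0.144 and 0.180), and with the block and arrays set to a common median 0 of the 13 did. In arrays 2 and 3 alone, 2 of the 13 were higher and 3 lower past the threshold, against 12.8% and 20.5% of all genes.

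Peroxidases, dismutases and catalase outside the members did not pass the paired fit in any of 8 measured genes, with a median difference of 0.0086. Of these, 2 were at an unadjusted p under 0.05 in each fit, against 11.9% of all genes without the block and 22.4% with it. Without the number 1 arrays, 1 of the 8 rose and 1 fell, where 12.8% of all genes rose and 20.5% fell; these shares are the background for the next 2 lists as well. Of 9 genes of glutathione synthesis and supply 0 passed the paired fit (3 at an unadjusted p under 0.05), with a median of -0.095, and without the number 1 arrays 2 rose and 1 fell. Of 14 NRF2 regulators and targets 1 passed the paired fit (background 1.73% of genes higher and 1.96% lower). It was MAFF, a small MAF partner of NRF2, which rose from signals of 42.1, 550.8 and 616.4 to 651.9, 1832.3 and 2023.2. The log2 difference was 2.47 (limma's adjusted p = 0.0440 in the paired fit and 0.446 without the block). With the block under quantile normalization or a common median, 0 of the 14 passed. Control 1 lay below the filter level of 45.5 for MAFF, and the difference was 3.95 in pair 1, 1.73 in pair 2 and 1.71 in pair 3. Without the number 1 arrays 2 of these 14 rose and 3 fell.

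Among the genes listed as other NADPH sources 0 of 12 measured passed the paired fit (smallest adjusted p 0.0985). Which coenzyme each listed enzyme mainly makes was not checked, so the name is that of the list. An unadjusted p under 0.05 was found for 4 of 12 (background 22.4%), and 4 of 12 were lower in all 3 pairs, near the background of 29.5%. Another, NADK (log2 difference 0.51), was the 1 of 12 higher in all 3 pairs (background 15.2%), and is also named after its value was seen. The 4 lower in all pairs were the malic enzymes ME1 (-0.87), ME2 (-0.74) and ME3 (-0.95) and the cytosolic isocitrate dehydrogenase IDH1 (-0.49, log2 differences), named after their values were seen. In arrays 2 and 3 alone these 4 and SHMT2, a mitochondrial enzyme of serine metabolism, fell, 5 of 12 genes, and 0 rose, against 20.5% lower and 12.8% higher among all genes. The SHMT2 difference was 0.80 in pair 1, -0.44 in pair 2 and -0.33 in pair 3.

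Genes of mitochondrial steroid synthesis, whose P450 enzymes draw on mitochondrial NADPH, were higher after 8-Br-cAMP in all 3 pairs (4 of 4 measured, background 15.2%). Of these, 3 rose in the paired fit (CYP11B1, FDX1 and CYP11A1) and 0 fell, with a list median of 2.24, against a background of 1.73% higher and 1.96% lower. Without the block 0 of the 4 passed (adjusted p = 0.299 for CYP11B1, 0.176 for FDX1 and 0.132 for CYP11A1). The count of 3 held with the block under quantile normalization and under a common median. FDX1, the ferredoxin that hands electrons to the P450 enzymes, went from signals of 1525.6, 598.4 and 528.5 to 5886.3, 2644.6 and 2831.8, with no overlap between groups. For FDX1 and CYP11B1 the log2 differences were 2.17 and 2.59 (paired adjusted p = 0.00879 and 0.00805).

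**Figure D4:**
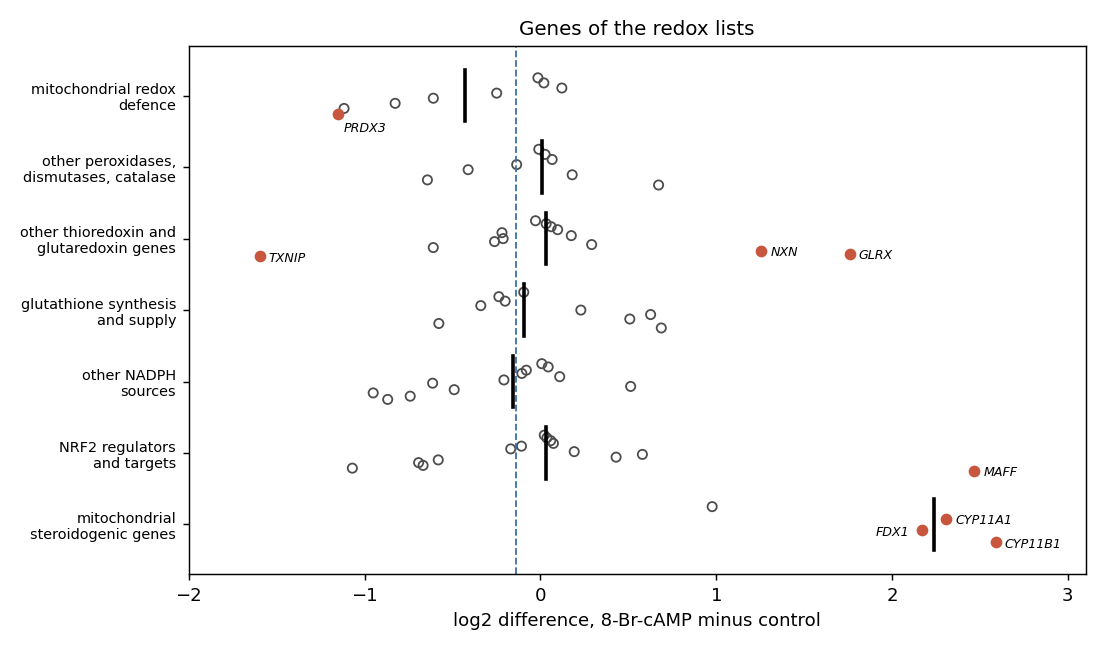
Log2 differences (8-Br-cAMP minus control) of the genes tested in the 8-gene list and in 6 related lists, with 1 point for each gene. Filled red points passed the paired fit, black bars are list medians and the dashed line is the median of all 7927 genes (-0.14); PRDX3 is the filled point of the mitochondrial redox list, whose median was -0.43.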

How the data were processed

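RNA from 3 control and 3 treated samples was measured on Affymetrix arrays. The authors deposited linear signal intensities, 1 per probe set on each array, from GCOS 1.3, per the submitters' processing notes. The 2% trimmed means of the 6 arrays lay between 249.996 and 250.155, so the intensities were used as deposited; such scaling hides a change shared by most transcripts. Of 22215 probe sets that are no array controls, 19064 carry 1 gene symbol in GEO's platform annotation, 1043 several, and 2108 none. No gene was named from several symbols. Gene IDs of 19052 matched RefSeq (GRCh38.p14), with 0 symbols changed. Groups and numbers came from the sample titles.

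Signals were taken to log2, and probe sets with a mean above the 40th percentile (5.51, a signal of 45.5) were kept, 13329 probe sets and 7927 genes, each gene by its probe set with the highest mean. Group differences came from limma 3.58.1 under R 4.3.3 (lmFit, eBayes with trend, two-sided, Benjamini-Hochberg over all kept probe sets, threshold 0.05), and every adjusted p is limma's. The set design had no block. Same-numbered arrays deviated together from their group means (correlations 0.603, 0.378 and 0.538, all over 0.1). They were therefore treated as pairs, which comes from the data, not the labels. Number 1 arrays that stand apart in both groups can by themselves raise all of these correlations. No correlation between differently numbered arrays was set beside them, so they cannot show that numbers 2 and 3 each form a pair. The fits were tested on simulated data that held the effects of the sample numbers and independent noise. That test cannot show whether same-numbered arrays are pairs, since it assumes them. The number of arrays limits the precision.

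Members and lists were chosen with earlier results of these data known. The rule for named genes took all members, the 2 smallest adjusted p among passing genes of each related list, and the 3 genes nearest to the member with the smallest unadjusted p. Alternatives covered normalization, filter, pseudocount, variance estimate, the block and arrays left out.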

Additional observations from a re-analysis of the deposited data

How the results depend on the processing

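The set fit without a block called 0 of 12 member probe sets and 0 of 8 member genes. This held under quantile normalization, a common median, other filters, a pseudocount of 16, other variance estimates, the unmoderated test and each array left out (range 0 to 0). With the replicate block 1 probe set and 1 gene passed, PRDX3, and the same count of 1 came with the block and quantile normalization, no filter, the 60th percentile filter or the pseudocount of 16; the last 3 of these, and the other combinations with the block except both scalings, were added after the data were seen. With the block it was 0 for a common median, no intensity trend and robust variances, and 0 to 6 probe sets and 0 to 3 genes with 1 pair left out, the highest without pair 1. Leaving out both number 1 arrays, 6 of 12 probe sets and 3 of 8 genes passed, where 33.3% of all genes did. That fit was not repeated under another scaling. The selection in the series' design text, at least 2-fold and an unadjusted p under 0.05, gave 2 probe sets and 2 genes, PRDX3 and NNT (background 7.01% of genes). The block changed no other call among the members.

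For the related lists the count without a block was 0 in each. With the block it was 3 for the thioredoxin and glutaredoxin genes (3 with quantile normalization and 0 with a common median), 1 for the NRF2 genes (0 with quantile normalization and 0 with a common median), and 3 for the steroidogenic genes, which had 3 under quantile normalization and 3 under a common median. With both number 1 arrays left out the counts were 2 of 8 for peroxidases, 5 of 13 for thioredoxin and glutaredoxin genes and 3 of 9 for glutathione genes. They were 5 of 12 for the NADPH list, 5 of 14 for NRF2 genes and 4 of 4 for steroidogenic genes. Of all genes tested 33.3% passed that fit.

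Of the member genes' values under the alternatives 191 kept direction and side of the threshold, 11 came past the threshold and 14 turned sign, all 14 in TXN2, TXNRD1 or GPX4. TXNRD1 was 0.21 with a common median, with and without the block. With arrays left out it ran from -0.56 (without control 1) to 0.39 (without 8-Br-cAMP 1), and with a pair left out and the block from -0.16 (pair 1) through 0.037 (pair 3) to 0.075 (pair 2). GPX4 was -0.15 with quantile normalization, with and without the block, and -0.055 without both number 1 arrays. With 1 array left out it ran from -0.16 to 0.12 (-0.075 without control 2), and with a pair left out and the block from -0.055 to 0.10. With 1 array left out TXN2 ran from -0.015 (without 8-Br-cAMP 1) to 0.23, and it was 0.35 with a common median. The cause was not tested. Over all probe sets kept, the median difference was -0.13 as deposited, against -0.031 under quantile normalization and 0.094 under a common median, and PRDX3, NNT, TXNRD2, IDH2 and GLRX2 stayed below 0 under each.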
